A study of Mus musculus with 6 samples.

Results

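Expression of 36 genes of sterol and lipid synthesis, with the regulators that set the rate of these pathways, was examined in the ganglion cell layer of the mouse retina 6 hrs after optic nerve crush. The list was drawn up by pathway, with earlier results of these data known. A probe set, the group of short probes by which the array reads a transcript, was assigned to a gene by the symbol in the platform annotation, and a gene was read from its probe set with the highest mean over the 6 arrays. Of the 36 genes, 34 had a probe set under their symbol alone. Acat2 and Nr1h2 were not analysed here. Idi2 had intensities of 2.00 to 14.1, under the minimum mean of 40, so that 33 genes were measured out of 15103 in all. The 34 genes have 76 probe sets, of which 70 passed this minimum.

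The arrays came from male C57BL/6J mice with no transgene named in the labels, and their age is not stated in the sources used here. The 3 crush samples are eyes in which the optic nerve was crushed for 10 sec behind the globe, taken 6 hrs later. The 3 control samples are the uninjured eyes of the opposite side from the same animals, so that the controls shared the anesthesia, the surgery of the other eye and the time. About 6000 cells of the ganglion cell layer were laser captured from each eye, and the amplified RNA of each eye was hybridized to 1 array. The captured tissue is a mixture: besides retinal ganglion cells (RGCs) it takes in amacrine cells displaced into the layer, glia and blood vessels. RNA of cells outside the layer was present as well. In control eyes marker genes of rods summed to 29065 to 52150 and those of bipolar cells to 14449 to 17533. The values are averages over all of these cells. Fewer cells of a type and less RNA per cell cannot be told apart in such samples.

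Cholesterol is made from acetyl-CoA through mevalonate, isoprenoid diphosphates, squalene and lanosterol, and each step has its own enzyme. When sterols in the membrane of the endoplasmic reticulum are low, the escort protein SCAP carries the transcription factors SREBP-1 and SREBP-2, the products of Srebf1 and Srebf2, to the Golgi apparatus, where they are cut and released to the nucleus, and they then induce the genes of sterol and fatty acid synthesis. INSIG proteins hold SCAP back when sterols are high, while the oxysterol receptors LXR induce sterol efflux through ABCA1 and ABCG1. The retina makes cholesterol locally, and both neurons and glia express these enzymes.

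Values are linear array intensities in arbitrary units. Differences are on the log2 scale after values under 16 were set to 16, crushed minus control eye, fitted with the 2 eyes of an animal paired by their number. Median intensity was 131 to 154 over the 6 arrays. The array of crush eye 2 carried the lowest of the 6 values for 12 of the 33 genes, against 36.5% of all genes, and values without pair 2 are given beside genes that moved most with it. Of the marker lists, Muller cell markers (12 of 13 measured, not Prdx6) summed to 53079 to 59318 in control eyes and to 51194 to 52479 in crushed eyes, and 2 of 12 were higher on average. Bipolar cell markers (6 of 8 measured) summed to 14449 to 17533 in control eyes and 13029 to 14029 in crushed eyes, with 0 of 6 higher. Pigment epithelium markers (7 of 8 measured, not Rpe65) summed to 8539 to 8791 in control eyes and to 9385 to 15089 in crushed eyes, with 4 of 7 higher. Their median log2 change was 0.00. The separation of the sums came from Ttr, transthyretin, singled out after its values were seen, at 493 to 948 in control eyes and 1733 to 7355 in crushed eyes. Without Ttr the sums overlapped, at 7700 to 8297 and 7053 to 8437. Most of these sums was Rlbp1, which is also on the Muller list, at 6032 to 7561 over the 6 arrays. Dct had a log2 change of 0.63 and Lrat 0.59, both with no overlap between groups. The rest of the list had 0.00 (Pmel), -0.01 (Best1), -0.09 (Rlbp1) and -0.40 (Tyrp1). RGC markers (11 of 12 measured, not Pou4f2) summed to 59065 to 60552 and to 52262 to 65862, and rod markers (7 of 9 measured) to 29065 to 52150 and to 39767 to 46771, with 4 of 11 and 7 of 7 members higher, so that these sums overlapped between groups. The sums of the amacrine, astrocyte, microglia, endothelial and lens lists overlapped as well. Of the 6 measured astrocyte markers 3 were higher on average, with a median log2 change of 0.03. Among them Gfap was at 379, 326 and 503 in control eyes and at 730, 607 and 821 in crushed eyes, a log2 change of 0.85. Sox8 had -0.56, and neither of these 2 overlapped between groups. The part of these shifts in the values of the sterol genes was not tested. In limma, 0 of 33169 probe sets passed a Benjamini-Hochberg adjusted p under 0.05, while 1713 higher and 833 lower ones had an unadjusted p under 0.05. With the methods' t-test the count past the adjusted threshold was also 0, and with a prior that was robust and trended with intensity it was 1.

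At 6 hrs after crush 4 of the 33 genes were higher with limma's unadjusted p under 0.05, where 2.76% of all genes were, and 0 were lower, where 2.27% were. The 4 genes were Mvd, Hsd17b7, Dhcr7 and Scd1, and all had an adjusted p of 0.642. The same 4 also met the study's further criteria, a fold over 1.2 and an intensity difference over 80 between the means, which 1.5% of all genes met as higher and 0.695% as lower. Counted by direction alone, 10 of 33 were higher in the crushed eye of all 3 pairs, against 15.2% of all genes, and 3 of 33 were lower in all pairs, against 15%. In 7 of 33 the 3 crushed eyes lay above the 3 control eyes with no overlap, against 5.69% of all genes, and in 0 of 33 they lay below, against 5.32%. These 7 were Mvd, Idi1, Lss, Hsd17b7, Dhcr7, Insig1 and Scd1. The median log2 fold change of the 33 genes was 0.02, and that of all genes was -0.02, and the higher values above belong to part of the 33.

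**Figure D1:**
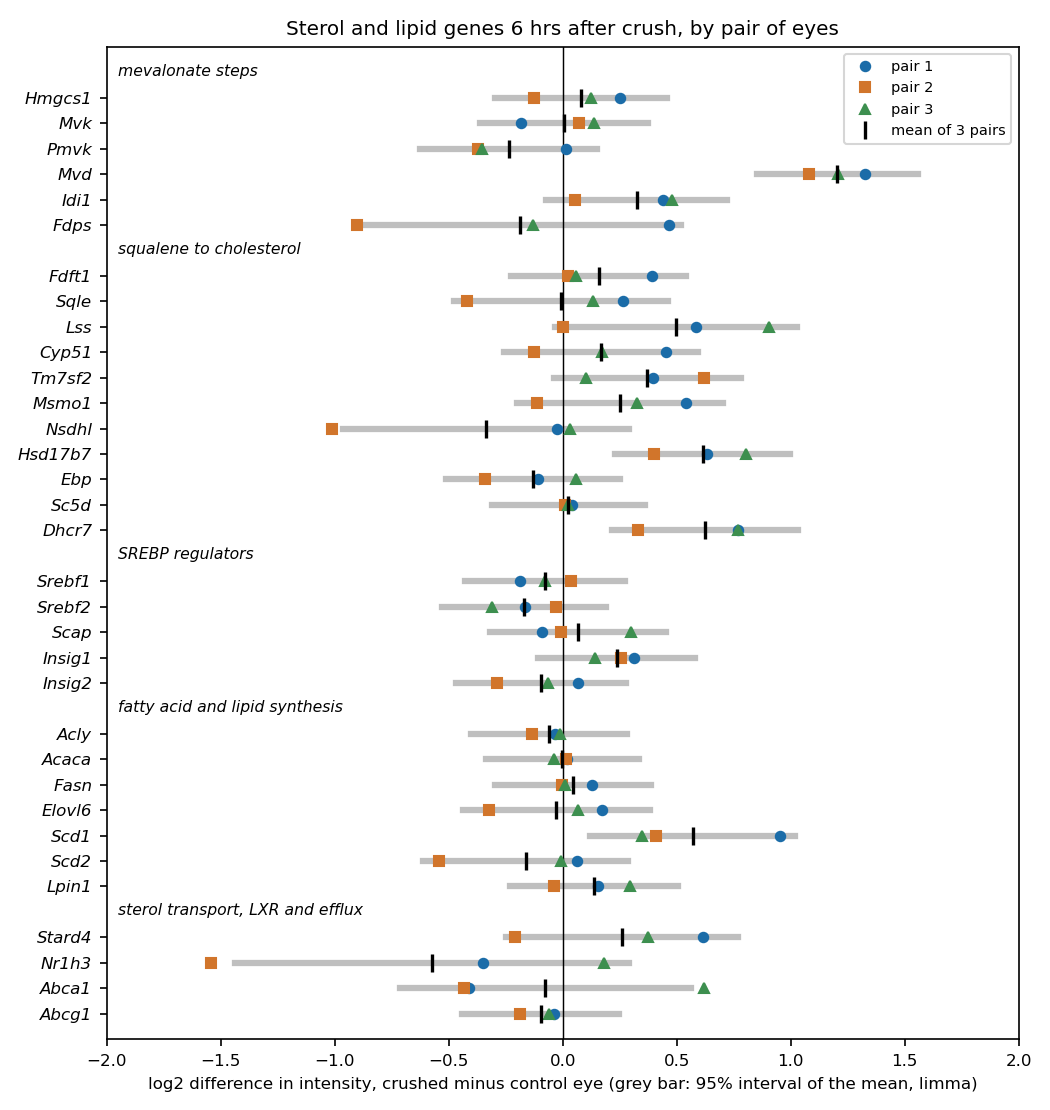
Log2 difference in array intensity between the crushed and the control eye for 33 sterol and lipid genes, grouped by role. Symbols are the 3 pairs of eyes, black ticks the mean and grey bars its 95% interval from limma. Mvd, Dhcr7, Hsd17b7 and Scd1 have intervals above 0, and pair 2 gives the lowest value for genes such as Nr1h3, Nsdhl and Fdps.

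The largest difference among the brightest probe sets was that of Mvd, mevalonate diphosphate decarboxylase, which makes the isoprenoid unit isopentenyl diphosphate. Its intensity was 376, 441 and 415 in control eyes 1 to 3 and 944, 932 and 957 in crushed eyes 1 to 3. All 3 crushed eyes lay far above the controls and close to each other. The group means were 411 ± 32.6 and 945 ± 12.5 (SD, n = 3 each). The log2 fold change was 1.2 (95% interval 0.85 to 1.56, standard error 0.14, adjusted p = 0.642 from limma). This probe set carries the suffix _s_at, with which the manufacturer marks probes that can match more than one transcript. The other Mvd probe set, 1417303_at, went the other way, with 72.4, 72.9 and 52.0 in control eyes and 50.3, 20.1 and 27.1 in crushed eyes. Its log2 fold change was -1.11 (95% interval -1.81 to -0.41, adjusted p = 0.642 from limma), it was lower in each pair, and the 2 intervals do not overlap. When the log2 values of both probe sets were averaged, Mvd had a log2 fold change of 0.05. The direction of Mvd therefore depends on which probe set is read, and the probe sets differ in brightness. Probe set 1417303_at had a mean of 49.1 over all arrays, close to the minimum mean of 40, while the brightest had 678. Its values of 20.1 and 27.1 in crushed eyes lie close to the floor of 16, so the size of its change is uncertain. The average of 0.05 gives both probe sets equal weight.

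Dhcr7, the reductase that yields cholesterol itself at the end of one route through the pathway, had a single probe set. It was at 550, 575 and 525 in control eyes and at 939, 723 and 896 in crushed eyes. The crushed eyes were higher in each pair, least in pair 2. The log2 fold change was 0.62 (95% interval 0.22 to 1.03, adjusted p = 0.642 from limma), and 0.55 without pair 1 and 0.55 without pair 3, neither at an unadjusted p under 0.05. The methods' t-test did not call it either. Hsd17b7, the keto reductase of sterol demethylation, was at 832, 1062 and 717 in control eyes and at 1290, 1404 and 1253 in crushed eyes. The log2 fold change of this brightest probe set was 0.61 (95% interval 0.23 to 1.00, adjusted p = 0.642 from limma), with 0.60 without pair 1 and 0.52 without pair 3, again neither at an unadjusted p under 0.05. Its probe set 1417871_at was also higher in all 3 pairs, with 647, 685 and 586 against 852, 812 and 902 and a log2 fold change of 0.42, at an unadjusted p under 0.05. The remaining probe sets of Hsd17b7 had -0.04 and -0.28, so 2 of 4 were higher, and the mean of the 4 gave 0.18, past no threshold. The brightest one has the suffix _x_at, which marks probes shared with unrelated transcripts.

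Lss, Idi1 and Tm7sf2 were higher in each pair on their brightest probe set, without reaching that threshold in the fit reported here. The trended, robust prior put each of them past it, quantile normalization Lss and Idi1, and median scaling Lss. None of them passed with the methods' t-test, with the mean of a gene's probe sets, or without pair 1 or pair 3. Lss, lanosterol synthase, which closes the first sterol ring system, was at 1258, 1753 and 964 in control eyes and at 1887, 1756 and 1803 in crushed eyes. The crushed eyes were close together and the controls were spread, and in pair 2 the difference was 0.00 on the log2 scale. The log2 fold change was 0.50 (95% interval -0.03 to 1.03), and 0.74 without pair 2, 0.45 without pair 1 and 0.29 without pair 3. The other probe sets of Lss had 0.12 and 0.27, the first level in pair 3 and the second at -0.29 in pair 2. Idi1, the isomerase that interconverts the isoprenoid units, was at 3020, 3646 and 3062 in control eyes and at 4091, 3782 and 4273 in crushed eyes. Its log2 fold change was 0.32 (95% interval -0.07 to 0.72), and 0.46 without pair 2, 0.27 without pair 1 and 0.25 without pair 3. Its other probe set had 0.16, with -0.15 in pair 2. Tm7sf2, a sterol reductase, was at 995, 955 and 1421 in control eyes and at 1309, 1465 and 1523 in crushed eyes. Crushed eye 1 lay below control eye 3 here, so the groups overlapped, and the log2 fold change was 0.37 (95% interval -0.04 to 0.78).

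**Figure D2:**
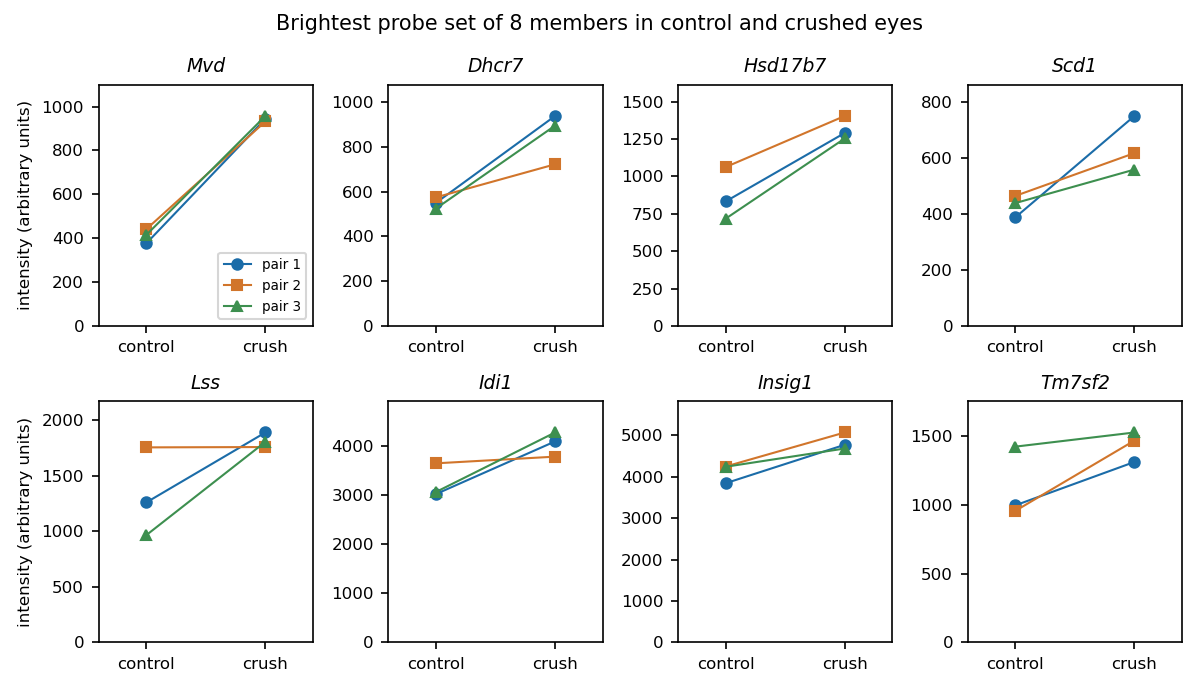
Array intensity, in arbitrary units on a linear axis from 0, of the brightest probe set of 8 genes in the 3 uninjured and the 3 crushed eyes, each pair joined by a line. Mvd goes from 376 to 441 in control eyes to 932 to 957 in crushed eyes, while in pair 2 Lss and Idi1 are nearly level.

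The bases before the transcription start are shown for 6 genes, 5 with crushed eyes above all control eyes and Hmgcs1, which holds the one match to the strict core of the sterol element. Sequences are from RefSeq on GRCm38.p6, 250 bases before an annotated start, 5′ to 3′ on the strand of the gene. Capitals mark matches on either strand to the CCAAT box (CCAAT, bound by NF-Y, a usual partner of SREBP) and to a relaxed core of the sterol regulatory element (CACNCCAC, which takes in the strict core CACCCCAC).
Mvd (GRCm38.p6, chr8:122443423-122443672, strand -): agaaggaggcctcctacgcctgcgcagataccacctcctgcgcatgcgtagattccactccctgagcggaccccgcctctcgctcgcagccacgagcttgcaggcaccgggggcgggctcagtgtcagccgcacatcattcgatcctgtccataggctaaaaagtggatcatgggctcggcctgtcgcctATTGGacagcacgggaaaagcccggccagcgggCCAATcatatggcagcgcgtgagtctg
Hsd17b7 (GRCm38.p6, chr1:169969206-169969455, strand -): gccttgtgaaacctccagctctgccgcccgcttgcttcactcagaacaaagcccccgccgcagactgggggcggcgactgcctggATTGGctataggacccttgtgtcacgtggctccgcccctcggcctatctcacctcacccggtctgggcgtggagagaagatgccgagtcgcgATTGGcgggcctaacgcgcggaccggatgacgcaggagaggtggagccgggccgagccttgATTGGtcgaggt
Lss (GRCm38.p6, chr10:76531355-76531604, strand +): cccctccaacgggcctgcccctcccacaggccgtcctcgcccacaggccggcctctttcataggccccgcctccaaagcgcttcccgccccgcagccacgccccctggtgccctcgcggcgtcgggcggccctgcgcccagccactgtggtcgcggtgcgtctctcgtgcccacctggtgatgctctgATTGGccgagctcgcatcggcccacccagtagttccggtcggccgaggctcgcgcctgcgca
Idi1 (GRCm38.p6, chr13:8885356-8885605, strand +): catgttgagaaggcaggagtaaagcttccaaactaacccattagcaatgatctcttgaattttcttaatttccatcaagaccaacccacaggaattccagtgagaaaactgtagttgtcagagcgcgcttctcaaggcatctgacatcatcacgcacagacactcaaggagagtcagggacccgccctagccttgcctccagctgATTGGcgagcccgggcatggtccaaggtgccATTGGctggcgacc
Insig1 (GRCm38.p6, chr5:28071162-28071411, strand +): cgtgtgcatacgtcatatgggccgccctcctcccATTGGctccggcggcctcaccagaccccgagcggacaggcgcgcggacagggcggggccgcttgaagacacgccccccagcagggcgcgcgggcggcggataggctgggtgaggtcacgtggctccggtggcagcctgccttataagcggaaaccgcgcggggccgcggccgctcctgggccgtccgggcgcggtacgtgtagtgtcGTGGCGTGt
Hmgcs1 (GRCm38.p6, chr13:119690101-119690350, strand +): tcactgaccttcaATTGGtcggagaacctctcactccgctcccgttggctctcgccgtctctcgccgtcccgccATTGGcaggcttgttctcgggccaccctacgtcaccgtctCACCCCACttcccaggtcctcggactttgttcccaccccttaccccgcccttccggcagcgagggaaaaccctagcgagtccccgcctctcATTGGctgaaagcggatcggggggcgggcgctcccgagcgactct

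In these windows Mvd had 2 CCAAT matches, with first bases 60 and 27 before the start, Hsd17b7 had 3, at 165, 73 and 12, and Idi1 had 2, at 45 and 14. Lss had 1 at 62 and Insig1 1 at 216. Hmgcs1 had 3, at 237, 176 and 45, and a match to the strict sterol element core at 136, and Insig1 had a match to the relaxed core at 9. Over the 35 windows found for 26 of the 33 genes, 20 (57.1%) held a CCAAT match, against 33.8% of all 32851 windows. The GC box (GGGCGG on either strand) was in 23 (65.7%), against 32.7% of all. The strict sterol core was in 1 (Hmgcs1) against 2.58% of all windows, and the relaxed core in 2 against 5.29%. A match is a description of these letters only, and genes with several starts are counted at each. Dhcr7 has windows at 3 starts, 1 of them with CCAAT matches, and is not shown. Scd1, which also had crushed eyes above all control eyes, is not among the genes with a window.

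The brightest probe sets of the other mevalonate genes, Hmgcs1, Mvk, Pmvk and Fdps, did not pass the unadjusted threshold. Hmgcs1, which makes the HMG-CoA that feeds the pathway, was at 9589, 10790 and 9036 in control eyes and at 11397, 9878 and 9833 in crushed eyes on its brightest probe set, a log2 fold change of 0.08 (95% interval -0.30 to 0.46). Of its other 4 probe sets, 3 had 0.10, 0.06 and -0.13. The remaining one, 1441536_at, was dim, at 19.2, 33.5 and 24.1 in control eyes and at 80.7, 166 and 191 in crushed eyes. It was higher in each pair, with a log2 fold change of 2.46 (95% interval 1.92 to 3.00, adjusted p = 0.642 from limma), and the control values lie close to the floor of 16. The mean of the 5 probe sets gave Hmgcs1 a log2 fold change of 0.51, at an unadjusted p under 0.05. Mvk, mevalonate kinase, was at 66.3 to 97.6 over the 6 arrays with a log2 fold change of 0.01. Pmvk, phosphomevalonate kinase, had -0.24 (95% interval -0.63 to 0.15), with 1608 in the control and 1624 in the crushed eye of pair 1, and 1671 and 1290 in pair 2. Fdps, farnesyl diphosphate synthase, had 521, 648 and 435 in control eyes and 720, 346 and 397 in crushed eyes. It was higher in pair 1 and lower in pairs 2 and 3, and its log2 fold change was -0.19, with 0.17 without pair 2 and -0.52 without pair 1.

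From squalene onward, 6 of 11 genes were higher in all 3 pairs on their brightest probe set, against 15.2% of all genes. They were Fdft1, Lss, Tm7sf2, Hsd17b7, Sc5d and Dhcr7. In all pairs 0 of 11 were lower, against 15% of all genes. Every dimmer tested probe set of Fdft1, Lss and Sc5d was lower in some pair, as were those of Hsd17b7 except 1417871_at. The 11 genes had median log2 differences of 0.40, 0.00 and 0.13 in pairs 1 to 3, and all genes had 0.01, -0.10 and 0.04. Fdft1, squalene synthase, had a log2 fold change of 0.16, most of it in pair 1, where the control eye had 4603 and the crushed eye 6046. Sqle, squalene epoxidase, is a main point of control of the branch, and it was at 2869, 3493 and 2661 in control eyes and 3450, 2614 and 2914 in crushed eyes. The pairs disagreed and the log2 fold change was -0.01 (95% interval -0.48 to 0.46), with 0.20 without pair 2 and -0.14 without pair 1. Cyp51, the demethylase of lanosterol, had 0.17, and its probe set 1422533_at was at 526, 599 and 439 in control eyes and 721, 640 and 641 in crushed eyes, with no overlap and 0.37. Its remaining probe set had 0.05, with -0.56 in pair 2. The brightest had 0.31 without pair 2 and 0.02 without pair 1. Msmo1, a sterol methyl oxidase, had 0.25 on its brightest probe set, with 0.54 in pair 1, -0.11 in pair 2 and 0.33 in pair 3. The other probe set of Msmo1 had 0.30, and the brightest had 0.43 without pair 2 and 0.11 without pair 1. Nsdhl, the sterol decarboxylase, was at 2863 to 2911 in control eyes and at 2865, 1420 and 2931 in crushed eyes. The array of crush eye 2 stood apart, and the log2 fold change of -0.33 became 0.00 without pair 2. Ebp, an isomerase, had -0.13 and Sc5d, a desaturase, had 0.02, with differences of 0.04, 0.01 and 0.02 in the 3 pairs.

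Among the regulators, Insig1 was the one gene with crushed eyes above all controls. Insig1, a target of SREBP as well as its brake, was at 3845, 4249 and 4243 in control eyes and at 4774, 5071 and 4684 in crushed eyes. The crushed eyes were higher in each pair, with a log2 fold change of 0.24 (95% interval -0.11 to 0.58), not at an unadjusted p under 0.05. The methods' t-test, a floor of 64, no intensity filter and the trended, robust prior put it past that threshold. Insig2 had -0.10 on its brightest probe set and 0.14 and -0.02 on the others. Srebf2, whose product acts mainly on sterol genes, was at 785, 725 and 991 in control eyes and at 700, 710 and 799 in crushed eyes, lower in each pair with overlap between groups and a log2 fold change of -0.17 (95% interval -0.53 to 0.19). Its dimmer probe set went the other way in each pair, with 0.27. Srebf1, whose product acts more on fatty acid genes, had -0.08 (95% interval -0.43 to 0.27), and Scap had 0.07 (95% interval -0.32 to 0.45). Of the 5 regulators 0 passed limma's unadjusted p under 0.05.

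**Figure D3:**
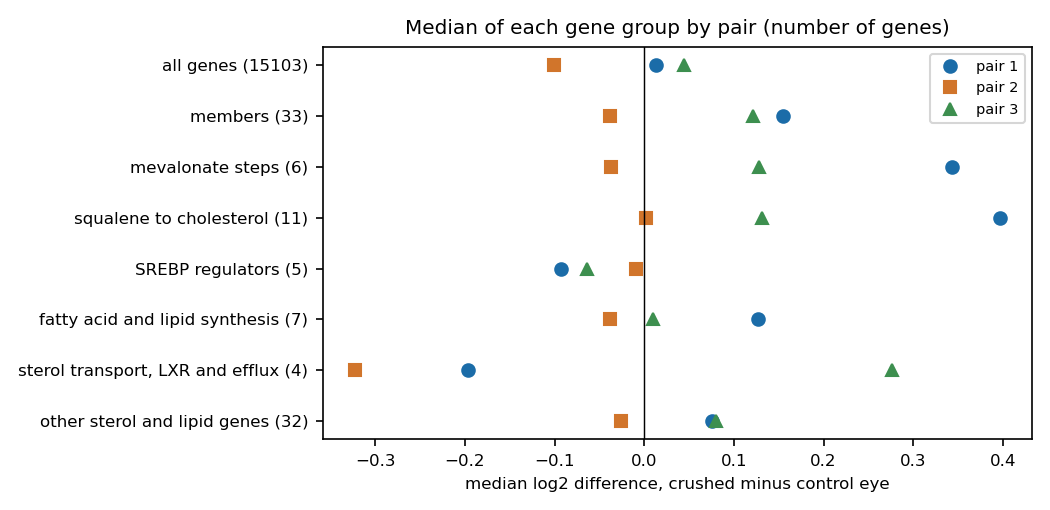
Median log2 difference between crushed and control eye in each pair for all genes, the 33 genes and their groups by role, with the number of genes in parentheses. In pair 1 the genes from squalene to cholesterol have a median of 0.40 and all genes one of 0.01, while in pair 2 the 2 medians are 0.00 and -0.10.

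Of the 7 genes of fatty acid and glycerolipid synthesis, Scd1 alone passed limma's unadjusted p under 0.05. Scd1, a desaturase that makes monounsaturated fatty acids, was at 388, 464 and 439 in control eyes and at 750, 617 and 558 in crushed eyes. The difference was greatest in pair 1, with log2 differences of 0.95, 0.41 and 0.35. The log2 fold change was 0.57 (95% interval 0.12 to 1.02, adjusted p = 0.642 from limma), and 0.38 without pair 1, not at an unadjusted p under 0.05. Its other probe set, 1415965_at, was at 341, 368 and 356 in control eyes and at 342, 234 and 349 in crushed eyes, level in pairs 1 and 3, with a log2 fold change of -0.22. The mean of both gave 0.17, which did not pass the threshold, nor did the brightest probe set in the methods' t-test or with no intensity filter. Lpin1, a phosphatidate phosphatase, had 0.14 on its brightest probe set, while 1426516_a_at was at 1629, 1466 and 1476 in control eyes and 2172, 1749 and 2138 in crushed eyes. That probe set was higher in each pair with no overlap, at 0.40 (95% interval 0.04 to 0.76, adjusted p = 0.642 from limma).

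The core enzymes of fatty acid synthesis were near 0. Acly, which makes cytosolic acetyl-CoA, had a log2 fold change of -0.06 (95% interval -0.40 to 0.28), Acaca, which makes malonyl-CoA, had 0.00 (95% interval -0.34 to 0.34), and Fasn, fatty acid synthase, had 0.04 (95% interval -0.30 to 0.39). Fasn was at 3842, 4019 and 3842 in control eyes and at 4196, 4012 and 3868 in crushed eyes. Acaca had a dimmer probe set at 166, 169 and 184 in control eyes and 170, 63.7 and 129 in crushed eyes, with -0.63, lowest on the array of crush eye 2. Elovl6, which elongates long chain fatty acids, had -0.03, and Scd2, the main desaturase of brain, had -0.16 with 10907 in the control and 7490 in the crushed eye of pair 2, and 0.03 without that pair. Differences inside these intervals were not detectable with 3 pairs.

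The genes of sterol transport, LXR and efflux had 0 members past limma's unadjusted p under 0.05. Stard4, a carrier of free cholesterol in the cytosol and an SREBP target, was at 2073, 2673 and 2202 in control eyes and at 3174, 2312 and 2854 in crushed eyes, higher in pairs 1 and 3 and lower in pair 2, with a log2 fold change of 0.26, and 0.49 without pair 2. Nr1h3, which encodes LXR alpha, was at 390, 312 and 330 in control eyes and at 305, 107 and 373 in crushed eyes. Its log2 fold change of -0.57 (95% interval -1.44 to 0.29) came mostly from pair 2, at -1.54, and was -0.09 without that pair. Abca1, which loads cholesterol onto apolipoproteins, was at 1687, 1681 and 884 in control eyes and at 1269, 1243 and 1356 in crushed eyes. It was lower in pairs 1 and 2 and higher in pair 3, and the log2 fold change was -0.08, and 0.10 without pair 2. Abcg1, another sterol exporter, had -0.10 and was lower in each pair by 0.04 to 0.19, while its other probe set had 0.11.

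Probe sets of a gene often disagreed. Of the 21 genes with more than 1 tested probe set, 10 had all of them in the direction of the brightest and 11 had at least 1 in the opposite direction. Over the 70 tested probe sets, limma's unadjusted p was under 0.05 for 7 that were higher and 1 that was lower, and over all tested probe sets it was for 5.16% as higher and 2.51% as lower. The lower one was 1417303_at of Mvd, and the higher ones were those of Mvd, Dhcr7, Scd1, both of Hsd17b7, the dim one of Hmgcs1 and 1426516_a_at of Lpin1, named after their values had been seen.

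**Figure D4:**
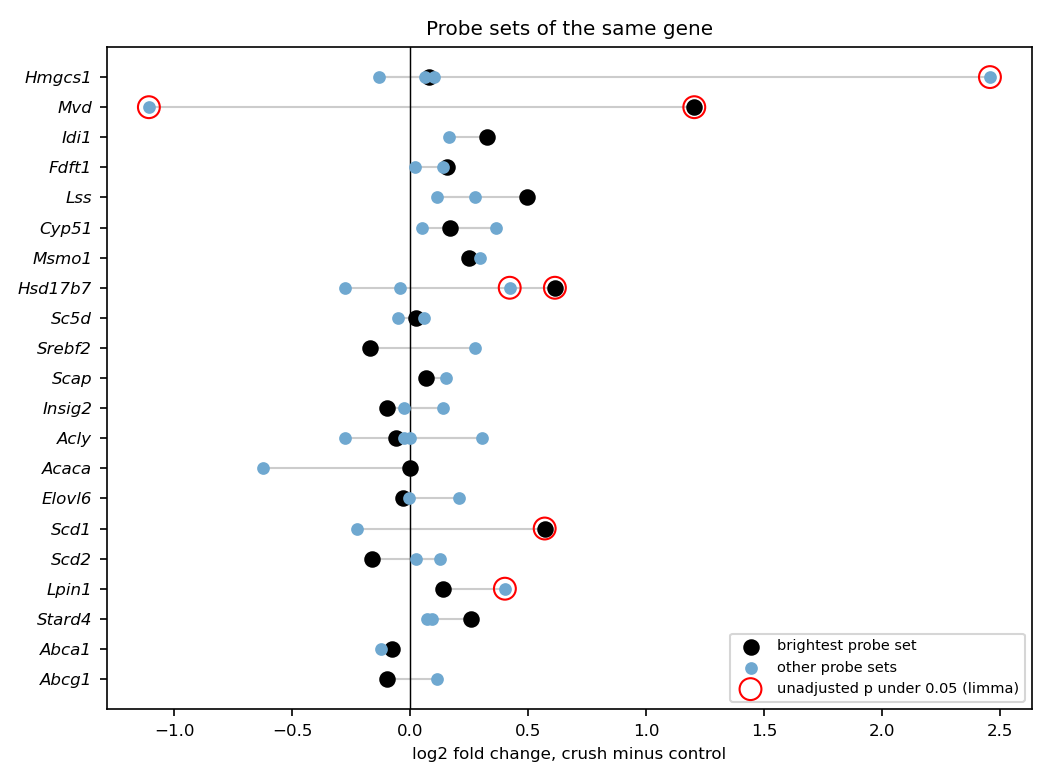
Log2 fold change, crush minus control, of every tested probe set of the 21 genes that have more than 1. Black points are the brightest probe set of a gene, blue points the others, and red circles mark limma's unadjusted p under 0.05. Mvd spans -1.11 to 1.2 and Hmgcs1 spans -0.13 to 2.46, while the probe sets of Lss, Idi1, Cyp51 and Msmo1 all lie above 0.

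Another 40 genes of sterol and lipid handling were counted in the same way, of which 34 had a probe set under their symbol alone and 32 were measured. Of these, 3 were higher and 0 lower by limma's unadjusted p under 0.05, against 2.76% and 2.27% of all genes, and 9 (28.1%) were higher and 5 (15.6%) lower in all 3 pairs, against 15.2% and 15% of all genes. Aacs, acetoacetyl-CoA synthetase, which feeds ketone bodies into sterol synthesis, was at 1545, 1444 and 1623 in control eyes and at 2296, 1872 and 2808 in crushed eyes. The groups did not overlap, and the log2 fold change was 0.58 (standard error 0.15, adjusted p = 0.642 from limma). Ggps1, geranylgeranyl diphosphate synthase, which draws on the same isoprenoids, was at 876, 1046 and 779 and at 1166, 1196 and 1211, a log2 fold change of 0.41 (adjusted p = 0.642 from limma). The other 3 probe sets of Ggps1 had -0.07, -0.09 and 0.13, and the other one of Aacs had 0.27. Abca7, a lipid transporter of the family of ABCA1, also had 0.41, with overlap between groups. Without pair 1, 0 of the 32 were higher at an unadjusted p under 0.05, and without pair 3 the count was 1. The 4 others with the highest mean intensity were Elovl5 at 0.03, Npc2 at -0.07, Acsl3 at -0.42 and Gpam at 0.01. Acsl3, an acyl-CoA synthetase, was at 4948, 5876 and 3006 in control eyes and at 3853, 3165 and 2987 in crushed eyes. Its other probe sets had -0.47, at limma's unadjusted p under 0.05, and -0.16, and every Acsl3 probe set was lower in each pair. The median log2 fold change of the 32 genes was 0.03.

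Left out in turn, the pairs moved the count of higher genes among the 33, by the same unadjusted threshold, from 4 to 1 without pair 1 (Mvd), 8 without pair 2 and 2 without pair 3 (Mvd and Scd1), where Nr1h3 was also lower. Over all 33169 probe sets the higher count in the same fits went from 1713 to 1801, 1261 and 725. The 8 genes without pair 2 were Mvd, Idi1, Lss, Msmo1, Hsd17b7, Dhcr7, Scd1 and Stard4. Mvd was the one gene past that threshold in each of these.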

How the data were processed

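The authors put RNA of captured ganglion cell layer, after amplification, on Affymetrix Mu430 v2.0 arrays, 1 per eye, and the deposited values are linear intensities per probe set, calculated in dChip with invariant set normalization and the PM/MM model. In each array 1744 to 2217 values equal 1, so ratios near background are uncertain. The labels place the crush 1 mm behind the globe and the methods 2 mm. The labels do not say whether eyes came from separate animals beyond their number. The p values and intervals rest on the spread between these pairs, which limma moderates toward a spread shared by all tested probe sets. For Sc5d, with differences of 0.04, 0.01 and 0.02 in the 3 pairs, the standard error was 0.13.

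Values were floored at 16 before log2. The 33169 probe sets whose mean reached 40, Affymetrix controls left out, entered one limma 3.58.1 model (R 4.3.3) blocked on eye number, with Benjamini-Hochberg adjustment across all of them. The study's methods use a paired test, and deviations from the group means correlated by 0.154, 0.125 and 0.297 in pairs 1 to 3, each over the 0.1 required, so the pairing was kept. Unmatched eyes had -0.264 to 0.131, so 1 unmatched value exceeded that of pair 2. Of 45101 probe sets, 34945 carried a single symbol and were used for genes, each by its brightest probe set. Background shares are over the 15103 genes so measured. All 33 genes could be named, and of the 40 others those past an unadjusted p under 0.05 with 4 of the highest mean. The genes and lists were chosen with earlier results of these data known. Some marker genes are not reported here. The calculation was tested on simulated data. Alternatives covered the block, floor, filter, scaling, prior, test, probe set choice and arrays used. Precision is set by the number of arrays and by the spread that limma shares across probe sets.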

Additional observations from a re-analysis of the deposited data

How the results depend on the processing

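The 95% intervals of the 33 genes reached 0.34 to 0.86 to either side on the log2 scale, so smaller changes were hard to detect with 3 pairs, and each array had 6876 to 7219 values under the floor. The direction of Mvd, Hsd17b7, Dhcr7 and Scd1 did not turn under any of the 15 alternatives run, but their side of the threshold did in 11 of 60 cases. All alternatives except the mean of a gene's probe sets read the same brightest probe set. They could not show the opposite direction of other probe sets of Mvd, Hsd17b7 and Scd1. With the mean of a gene's probe sets 2 genes were higher (Hmgcs1 and Dhcr7), with Mvd at 0.05, Hsd17b7 at 0.18 and Scd1 at 0.17. With the methods' t-test 3 were higher (Mvd, Hsd17b7 and Insig1), and with the trended, robust prior 8. Without the replicate block 4 were higher, the same genes as with the pairing, and the block changed no other call among the 33 genes. Leaving out a pair gave 1 to 8 higher and 0 to 1 lower (Nr1h3), and the median of the 33 genes ran from 0.02 to 0.12. The cause was not tested.

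Of the other genes, 6 of 34 were higher with no intensity filter, and of the 32 measured 0 to 2 over the runs that leave out a pair, with 0 to 1 lower. Lower counts were 1 with a floor of 64, no filter, the trended, robust prior or without crush eye 3, and 2 with the methods' t-test, against 0. At the study's thresholds on fold, intensity difference and p, with limma's unadjusted p in place of its t-test, 856 probe sets were higher and 180 lower. The methods' t-test gave 239 and 82, median scaling 901 and 310, quantile normalization 719 and 447, the trended, robust prior 1139 and 378. Without crush eye 2 and the block it was 716 and 103, without crush eye 3 and the block 353 and 347, and leaving out a pair gave 262 to 1071 and 67 to 269.

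Among genes past no threshold some changed sign. With quantile normalization Sqle had 0.012, Sc5d -0.029, Acaca 0.024 and Elovl6 0.0100. With the mean of a gene's probe sets Srebf2 had 0.053, Insig2 0.0061, Elovl6 0.058 and Abcg1 0.0088. Without crush eye 2 and the block Fdps had 0.021, Sqle 0.086, Nsdhl 0.0081, Ebp 0.011, Acaca 0.012 and Elovl6 0.12. Without crush eye 3 and the block Mvk had -0.15, Sqle 0.0076, Scap -0.041 and Acaca 0.028. Leaving out 1 pair at a time gave ranges across 0, Hmgcs1 -0.0028 to 0.19, Mvk -0.056 to 0.10, Fdps -0.52 to 0.17, Sqle -0.14 to 0.20, Nsdhl -0.52 to 0.0035, Scap -0.051 to 0.15, Insig2 -0.18 to 0.00058, Acaca -0.011 to 0.016, Elovl6 -0.13 to 0.12, Scd2 -0.28 to 0.026 and Abca1 -0.42 to 0.10.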
